A study of Mus musculus with 48 samples.

Results

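The response of the embryonic mouse limb ectoderm to cadmium was followed at 12 h with 6 of the 48 arrays of the study, 3 from embryos of dams given cadmium sulfate and 3 from embryos of dams given phosphate-buffered saline (PBS), its vehicle. Of 12488 probe sets on the MG-U74Av2 array, all 10855 that name a single gene were used, and probe sets of one gene were averaged, which left 8252 genes. The study gave pregnant mice an intraperitoneal injection on gestation day 9.5, collected embryos 3 h or 12 h later, took the right forelimb buds, and parted ectoderm from mesoderm in 2% crude trypsin. It formed 16 groups of 3 arrays from cadmium sulfate at 4 mg/kg, acetazolamide at 400 mg/kg in vegetable oil, and the PBS and oil vehicles, in both tissues at both times. Besides the 12 h cadmium ectoderm and its PBS arrays, the groups used here for comparison are cadmium and PBS mesoderm at 12 h, cadmium and PBS ectoderm at 3 h, and acetazolamide and oil ectoderm at 12 h. No strain, genotype or embryo sex is given in the labels. Tissue of several litters went into each RNA, while the design text speaks of extracts that were not pooled, and the labels do not say whether the 3 extracts of a group came from different litters. The p-values therefore measure a spread between arrays that may be technical. That spread was estimated for each gene from all 48 arrays, not from the 6 alone.

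The limb ectoderm is a thin epithelium whose thickened rim, the apical ectodermal ridge, signals to the mesoderm beneath it through FGF, Wnt and BMP ligands and keeps the bud growing. Cadmium is a heavy metal that causes limb defects in mouse embryos. In most cells it displaces zinc from proteins and, through the metal-sensing transcription factor MTF1, switches on metallothioneins, small cysteine-rich proteins that bind the metal; it can also engage p53, the heat shock response and glutathione synthesis. Acetazolamide, a carbonic anhydrase inhibitor of unrelated structure, is likewise known to cause limb defects in mice.

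The deposited values are ratios to the matching vehicle arrays, and they are given here as log2 ratios. PBS arrays 1 and 2 sum to 2 for every probe set, so that each mirrors the other around their mean, and PBS array 3 is 1 throughout, so that its log2 ratio is 0 for every gene and is not repeated below. The PBS range is thus set by arrays 1 and 2 alone, and their distance from PBS array 3 is not in these values. Groups said below to be separate, or not to overlap, are so within this limit. For a gene with several probe sets this was judged on their mean, and single probe sets can overlap. By the numbering, cadmium array 3 also has another denominator than cadmium arrays 1 and 2. No expression level is left in such values, and the tissue label could not be checked against ectoderm and mesoderm markers, nor could a gene be said to be expressed. In bulk tissue, fewer cells of a type and less RNA per cell cannot be told apart.

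The 3 cadmium arrays were not alike. Across the 8252 genes, which are not independent replicates, the log2 ratios of cadmium arrays 1 and 3 correlated at 0.55 (Pearson's r). Those of cadmium array 2 correlated at -0.08 with array 1, at -0.06 with array 3 and at 0.41 with PBS array 1. For cadmium arrays 1 and 3 the correlation with PBS array 1 was 0.19 and 0.27. Cadmium array 2 had the opposite sign to both other cadmium arrays in 2466 genes (29.9%), against 1447 genes for array 1 (17.5%) and 1415 for array 3 (17.1%). Its Gapdh probe sets also stood apart, with a 3' to 5' log2 ratio of 1.80, against -0.67 and 0.44 on cadmium arrays 1 and 3 and -0.33 and 0.42 on PBS arrays 1 and 2, whereas the 3' to 5' log2 ratio of actin was 0.02, 0.08 and 0.07 on the cadmium arrays. For 18S rRNA the 3' to 5' log2 ratio was 2.31, 2.82 and 1.65 on the cadmium arrays, against 2.95 and -0.64 on PBS arrays 1 and 2, a difference of 1.49 (1.21 without cadmium array 2) with overlapping groups. Cadmium array 3 was the widest, with an SD over genes of 0.54 (0.30 and 0.35 on cadmium arrays 1 and 2), 501 genes below a log2 ratio of -1 and 146 above 1. Its values correlated across genes at 0.59 with cadmium array 3 of 3 h ectoderm and at -0.78 with acetazolamide array 3 of 12 h ectoderm, 2 arrays with other vehicle arrays as denominators. The part of these array differences in the results below was not tested, and the called genes, and any list median or gene difference in 12 h ectoderm that moved by more than 1.5 times without cadmium array 2, are also given without it.

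**Figure D1:**
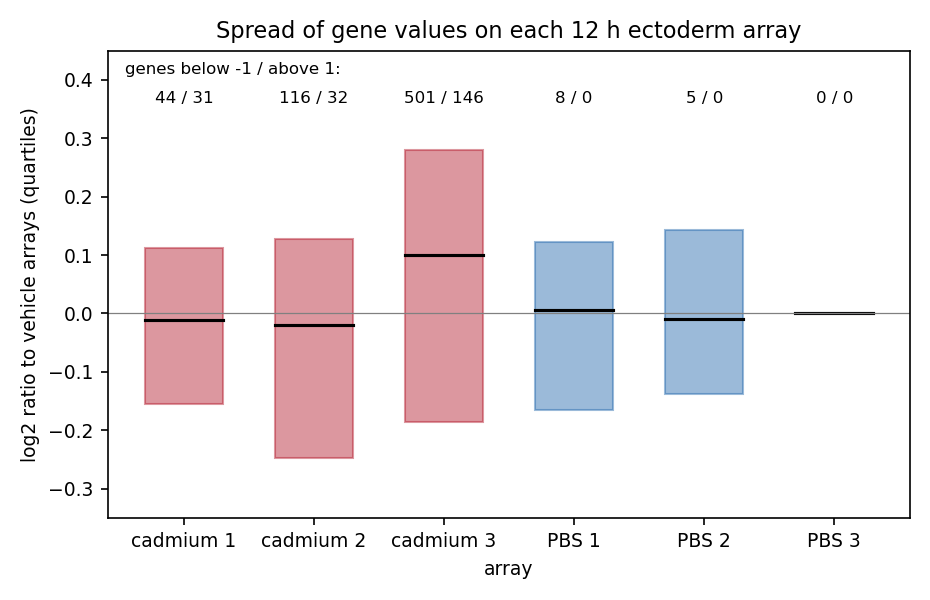
Quartiles of the log2 ratio to vehicle over 8252 genes on each 12 h ectoderm array; boxes span the lower and upper quartile, the line is the median, and the numbers are genes below -1 and above 1. Cadmium array 3 has a median of 0.10 and the widest box, with 501 genes below -1 and 146 above 1, and PBS array 3 is 0 by construction.

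At 12 h cadmium raised 1 gene and lowered 1 gene in the ectoderm at a Benjamini-Hochberg adjusted p under 0.05 (limma over all 48 arrays), 2 of 8252 genes tested (0.0242%). The gene that rose was Mcam, which encodes CD146, an adhesion molecule of the immunoglobulin superfamily known from endothelium and from melanoma. The gene that fell was Vps4a, the ATPase that takes apart the membrane-cutting ESCRT-III filaments of endosomes, the midbody and budding vesicles. At an unadjusted p under 0.05 there were 278 genes lower (3.37%) and 89 higher (1.08%), and the cadmium and PBS arrays did not overlap in 472 genes lower (5.72%) and 357 higher (4.33%). The median gene had a 95% interval of ± 0.42 around its log2 difference, so that most differences smaller than that could not be resolved with these arrays. Leaving out 1 array at a time, 90 genes passed without PBS array 1, 20 without cadmium array 2, 1 without cadmium array 1 or PBS array 2, and 0 without array 3 of either group. The fit gives array 3 of the agent and vehicle groups a mean of their own. Leaving out either therefore removes both from the difference, so that the 2 are a single check, here and below. The difference had a median of 0.03 over all genes and lay above 0 in 4753 of them (57.6%).

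Mcam had log2 ratios of 0.83, 0.85 and 1.60 on the cadmium arrays, against 0.14 and -0.16 on PBS arrays 1 and 2. All 3 cadmium arrays lay above every PBS array, with array 3 the highest. The difference was 1.10 ± 0.16 (SE, 95% interval 0.78 to 1.42), a 2.14-fold higher ratio, with an adjusted p of 0.000983 (limma), and 1.16 with an adjusted p of 0.000844 without cadmium array 2. The call was lost without array 3 of either group (adjusted p = 0.404, limma), with array number as a replicate block (0.0572), with all treated arrays set against vehicle arrays 1 and 2 (0.133) and in a fit to the arrays of the comparison alone (0.952), with adjusted p-values between 2.55e-06 and 0.952 across the alternatives.

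Vps4a had log2 ratios of -1.08, -0.82 and -1.42 on the cadmium arrays, against -0.31 and 0.25 on PBS arrays 1 and 2, again with no overlap between the groups. The difference was -1.09 ± 0.19 (SE), a 2.13-fold lower ratio, with an adjusted p of 0.0213 (limma), and -1.21 with an adjusted p of 0.00342 without cadmium array 2. This call too was lost without array 3 of either group (adjusted p = 0.812), without cadmium array 1 (0.266) and without PBS array 2 (0.120, limma), as well as under the replicate block (0.0605), with all treated arrays set against vehicle arrays 1 and 2 (0.382), with arrays centred on their median (0.121) and in a fit to the arrays of the comparison alone (0.952), with adjusted p-values between 8.99e-05 and 1.0 across the alternatives. Each of these 2 genes is represented by a single probe set. The arrays of each comparison carried one precision weight, from their spread, and without these weights 89 genes passed in place of 2.

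**Figure D2:**
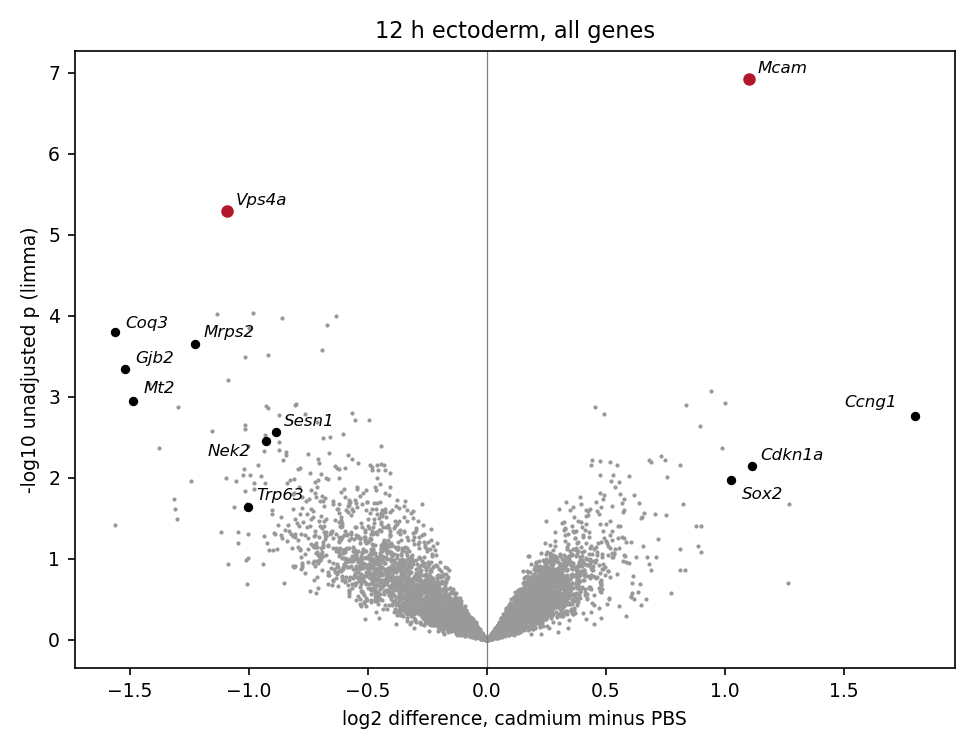
Log2 difference between cadmium and PBS arrays (x axis) and -log10 of the unadjusted p from limma (y axis) for 8252 genes in 12 h ectoderm; red points passed an adjusted p of 0.05 and black points are other genes named in the text. Mcam at 1.10 and Vps4a at -1.09 stand above the rest, while Ccng1 at 1.80 and Coq3 at -1.56 differ more in size but less in p.

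No metallothionein gene was called higher at 12 h. Mt2, one of the classical cadmium-induced metallothioneins, had the fourth lowest difference among genes with separate groups and an unadjusted p under 0.05. Its log2 ratios were -1.92, -1.86 and -0.73 on the cadmium arrays, against -0.32 and 0.26 on PBS arrays 1 and 2. All 3 cadmium arrays were lower than every PBS array, array 3 the least so, and the difference was -1.49 ± 0.41 (SE, 95% interval -2.33 to -0.65), with an adjusted p of 0.440 (limma); it was -1.40 without cadmium array 2. Mt1, its neighbour on chromosome 8, had log2 ratios of -0.38, -0.43 and 0.16 on the cadmium arrays and 0.02 and -0.02 on PBS arrays 1 and 2, so that the groups overlapped, with a difference of -0.22 ± 0.28 (SE). Mt3, the brain metallothionein, and Mt4, that of stratified epithelia, differed by 0.11 and -0.06, with overlapping groups. Mtf1 itself differed by 0.07. Without cadmium array 2 the difference was 0.26 for Mt3 and 0.03 for Mtf1.

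Of the 21 measured metallothionein and metal transport genes, 0 passed the adjusted threshold (0.0242% of all genes did), 11 lay above 0, and their median was 0.05, beside 0.03 over all genes. Without cadmium array 2 the median lay on the other side of 0, at -0.04 with 10 above 0, beside 0.05 over all genes. Slc30a1, the plasma membrane zinc exporter that MTF1 also drives, had -0.13, -0.09 and -0.59 on the cadmium arrays, just below the -0.08 and 0.08 of PBS arrays 1 and 2, with a difference of -0.27 ± 0.12 (SE). Slc30a4, another zinc exporter, differed by -0.37 and Slc39a3, a zinc importer, by 0.26, each without overlap between the groups. Their unadjusted p-values were 0.0624 and 0.0930 (limma).

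The promoters of both metallothionein genes are shown because the metal response element through which MTF1 acts is the best known route from cadmium to these genes. The windows run from 250 bases before to 50 bases after the annotated start (RefSeq, GRCm38.p6), and capitals mark matches to TGCNCNC on both strands. This search pattern is looser than the core of the element, so that a match need not be a metal response element. The Mt2 window lies at chr8:94172368-94172667 on the plus strand and holds 6 matches, 3 of them on the plus strand and 3 as the reverse complement. The Mt1 window, at chr8:94178839-94179138 on the plus strand, holds 3. A match is common, since 16765 of 32851 promoter windows (51.0%) hold at least 1.
Mt2: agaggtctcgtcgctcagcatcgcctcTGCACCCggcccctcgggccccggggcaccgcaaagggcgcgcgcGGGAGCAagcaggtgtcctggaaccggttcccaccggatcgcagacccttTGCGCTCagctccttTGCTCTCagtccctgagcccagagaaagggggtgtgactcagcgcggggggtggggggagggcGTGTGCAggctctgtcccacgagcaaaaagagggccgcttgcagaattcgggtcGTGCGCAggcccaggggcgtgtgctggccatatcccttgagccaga
Mt1: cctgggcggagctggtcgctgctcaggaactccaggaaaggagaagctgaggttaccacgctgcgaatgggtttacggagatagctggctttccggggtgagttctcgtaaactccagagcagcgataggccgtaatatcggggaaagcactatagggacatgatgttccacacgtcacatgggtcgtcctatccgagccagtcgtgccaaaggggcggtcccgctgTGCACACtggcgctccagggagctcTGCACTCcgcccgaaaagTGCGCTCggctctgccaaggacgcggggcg

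The largest positive differences among genes with separate groups and an unadjusted p under 0.05 were those of Ccng1 and Cdkn1a, 2 classical p53 targets, although neither passed the adjusted threshold. Ccng1, which encodes cyclin G1, had log2 ratios of 2.12, 2.62 and 0.64 on the cadmium arrays, against -0.03 and 0.03 on PBS arrays 1 and 2. Every cadmium array was above every PBS array, array 3 by the smallest margin, and the difference was 1.80 ± 0.52 (SE, 95% interval 0.73 to 2.86; adjusted p = 0.458, limma), or 1.49 without cadmium array 2. Cdkn1a encodes p21, the cyclin-dependent kinase inhibitor that holds damaged cells in G1. It had 0.83, 0.72 and 1.75 on the cadmium arrays, against -0.07 and 0.03 on PBS arrays 1 and 2, and here array 3 was the highest. The difference was 1.11 ± 0.38 (SE, adjusted p = 0.758, limma), 1.23 without cadmium array 2, and its 2 probe sets gave 0.93 and 1.29.

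The 19 measured p53 targets did not move as one. Of these genes 13 lay above 0 and the median was 0.12 (0.07 without cadmium array 2), while 0 passed the adjusted threshold. Btg2, an antiproliferative gene that p53 and growth factors both induce, had 0.24, 0.56 and 0.62 on the cadmium arrays, above the 0.11 and -0.12 of PBS arrays 1 and 2, with a difference of 0.47 ± 0.16 (SE). Sesn1, a sestrin that restrains mTORC1 under stress, went the other way, with -0.88, -0.78 and -1.04 on the cadmium arrays and -0.26 and 0.22 on PBS arrays 1 and 2. Its groups did not overlap, and the difference was -0.89 ± 0.27 (SE, adjusted p = 0.581, limma).

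The Cdkn1a promoter, picked after its values were seen, is shown for its p53 element, written in capitals. It lies at chr17:29090729-29091028 on the plus strand (RefSeq, GRCm38.p6), 1 of 2 windows listed for the gene. The other window, at chr17:29093519-29093818, holds 0 matches. The element was searched by its consensus, 2 abutting half-sites over 20 bases with at most 1 mismatch outside the half-site cores. Its first base is 51 bases before the annotated start of the window shown. Such a match is rare, in 18 of 32851 promoter windows (0.0548%), and among 16 measured p53 targets with a window it was found in 2, Cdkn1a and Gtse1. Gtse1, a microtubule-associated inhibitor of p53, differed by 0.41 with overlapping groups, and the Ccng1 window held no match.
Cdkn1a: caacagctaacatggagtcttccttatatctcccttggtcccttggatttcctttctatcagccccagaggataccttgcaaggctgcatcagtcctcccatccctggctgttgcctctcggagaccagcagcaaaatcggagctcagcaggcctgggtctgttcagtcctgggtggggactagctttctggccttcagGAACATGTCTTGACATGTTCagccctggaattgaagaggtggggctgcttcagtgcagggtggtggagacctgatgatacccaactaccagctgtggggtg

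**Figure D3:**
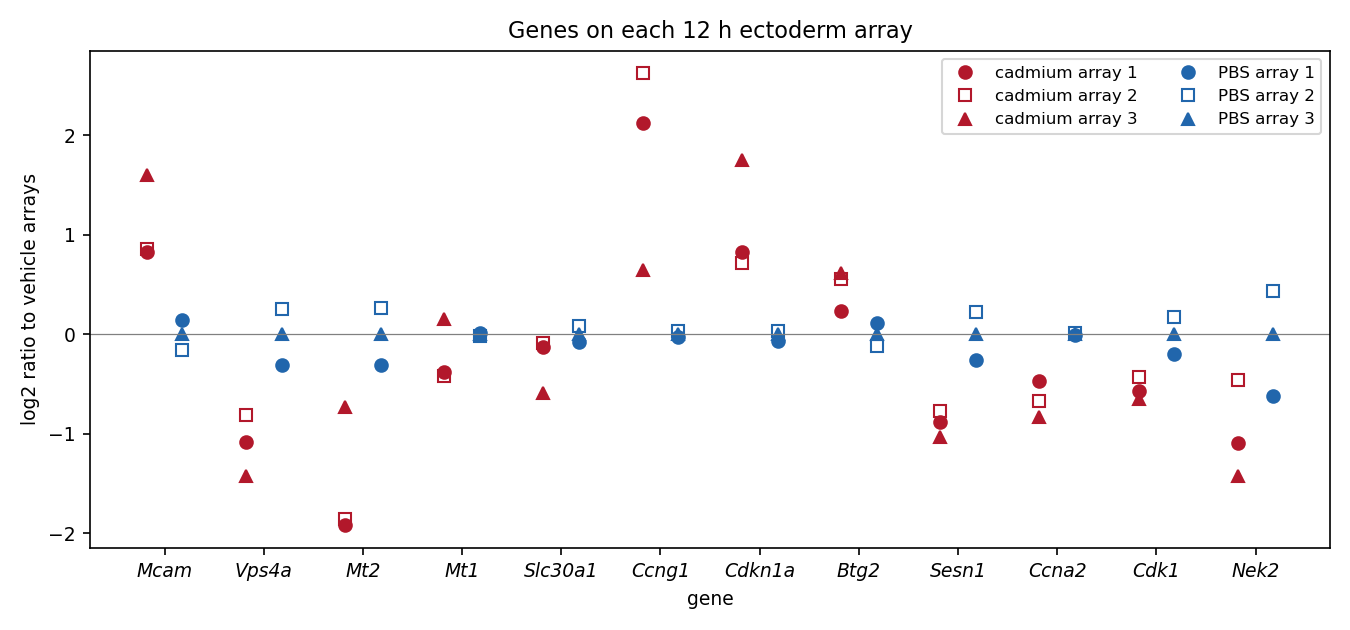
Log2 ratio to vehicle arrays (y axis) of 12 genes on each 12 h ectoderm array, with the cadmium arrays in red to the left of the PBS arrays in blue. The cadmium arrays lie apart from the PBS arrays for Mcam, Vps4a, Mt2, Slc30a1, Ccng1, Cdkn1a, Btg2, Sesn1, Ccna2 and Cdk1, and overlap with them for Mt1 and Nek2.

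Genes of mitosis lay low as a group at 12 h, without any of them passing the test. Of 42 measured mitosis genes 3 lay above 0, against 57.6% of all genes, and their median difference was -0.37, beside 0.03 over all genes. The groups did not overlap in 10 of the 42, all 10 lower in cadmium ectoderm, where 5.72% of all genes were separate and lower. The median over the list was -0.27, -0.26 and -0.46 on the 3 cadmium arrays, against -0.19 and 0.17 on PBS arrays 1 and 2, so that all cadmium arrays lay below all PBS arrays, by a small margin for arrays 1 and 2. Without cadmium array 2 the median was -0.39, and 6 of 42 lay above 0.

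Nek2, a kinase that parts the centrosomes on entry into mitosis, had log2 ratios of -1.09, -0.46 and -1.42 on the cadmium arrays and -0.63 and 0.44 on PBS arrays 1 and 2. Cadmium array 2 lay within the PBS range, and the difference was -0.93 ± 0.29 (SE, adjusted p = 0.662, limma). Ccna2, cyclin A2, had -0.47, -0.68 and -0.83 on the cadmium arrays and -0.01 and 0.01 on PBS arrays 1 and 2, with a difference of -0.66 ± 0.22 (SE). Cdk1, the kinase that drives cells into mitosis, had -0.57, -0.43 and -0.65 on the cadmium arrays, below the -0.20 and 0.17 of PBS arrays 1 and 2, with a difference of -0.54 ± 0.18 (SE). Prc1, which bundles the microtubules of the spindle midzone, differed by -0.68 with separate groups. Its cadmium arrays read -0.45, -0.50 and -1.09, with array 3 far below the other 2. In Ccna2, Cdk1 and Prc1 every cadmium array lay below every PBS array. The adjusted p-values of these genes were 0.758, 0.758 and 0.821 (limma).

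Other parts of the cell cycle lay closer to the rest of the genome. The 45 measured DNA replication genes had a median of -0.20 with 13 above 0, and without cadmium array 2 the median was -0.07 with 18 above 0. On the single arrays the median of this list was -0.11, -0.27 and -0.09 with cadmium, against -0.13 and 0.10 on PBS arrays 1 and 2, so the groups overlapped. Pole2, a subunit of DNA polymerase epsilon, had -0.84, -0.36 and -2.21 on the cadmium arrays and -0.32 and 0.26 on PBS arrays 1 and 2, with a difference of -1.12 ± 0.54 (SE). Pola1, the catalytic subunit of DNA polymerase alpha, differed by -0.75, and the origin licensing genes Cdc6 and Orc6 by -0.51 and -0.59. The 21 genes of G1 cyclins, their kinases and inhibitors had a median of -0.12 with 6 above 0. Among them Ccnd3, cyclin D3, had -0.31, -0.79 and -0.30 on the cadmium arrays, below the -0.18 and 0.16 of PBS arrays 1 and 2, with a difference of -0.46 ± 0.16 (SE, adjusted p = 0.758, limma), or -0.30 without cadmium array 2.

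Promoters of mitosis genes share the CCAAT box, bound by NF-Y, and the cell cycle homology region, through which the DREAM complex shuts these genes in resting cells. Both were searched on both strands as CCAAT and TTTGAA. Of 38 windows of measured mitosis genes 29 held CCAAT (76.3%), against 12289 of 32851 windows overall (37.4%), and 26 held TTTGAA (68.4%), against 5878 overall (17.9%). The windows of Nek2, Cdk1 and Prc1 are shown as the members with the smallest p that have an entry, the last 2 added after their values were seen; Ccna2 is named only. They lie at chr1:191821223-191821522 on the plus strand, chr10:69352863-69353162 on the minus strand and chr7:80294201-80294500 on the plus strand (RefSeq, GRCm38.p6), and capitals mark CCAAT, its complement ATTGG and TTTGAA. Nek2 holds 2 CCAAT matches and no TTTGAA, Cdk1 holds 3 and 2, and Prc1 holds 1 of each.
Nek2: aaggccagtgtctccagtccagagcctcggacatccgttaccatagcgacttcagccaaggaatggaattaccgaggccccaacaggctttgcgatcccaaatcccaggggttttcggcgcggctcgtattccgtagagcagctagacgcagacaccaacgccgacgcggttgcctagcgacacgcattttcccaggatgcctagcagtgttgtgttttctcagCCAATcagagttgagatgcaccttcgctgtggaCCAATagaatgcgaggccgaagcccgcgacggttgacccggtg
Cdk1: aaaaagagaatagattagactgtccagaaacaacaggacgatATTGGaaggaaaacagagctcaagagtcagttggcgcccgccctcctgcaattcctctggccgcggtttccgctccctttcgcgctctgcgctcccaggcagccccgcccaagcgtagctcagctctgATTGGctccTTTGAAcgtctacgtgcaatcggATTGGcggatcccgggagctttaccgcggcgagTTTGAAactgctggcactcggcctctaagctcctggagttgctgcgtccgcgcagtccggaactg
Prc1: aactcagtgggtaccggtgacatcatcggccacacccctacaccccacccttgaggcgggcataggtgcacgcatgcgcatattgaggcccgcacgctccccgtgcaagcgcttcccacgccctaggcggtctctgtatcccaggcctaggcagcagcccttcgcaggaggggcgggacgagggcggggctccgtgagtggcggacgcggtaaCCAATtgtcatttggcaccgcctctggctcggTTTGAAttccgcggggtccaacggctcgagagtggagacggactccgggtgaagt

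Like the p53 targets, the other stress pathways gave no call. Of 32 genes of oxidative stress and glutathione 22 lay above 0, with a median of 0.12. Gclc, the catalytic subunit of the enzyme that limits glutathione synthesis, had -0.45, -0.10 and -0.75 on the cadmium arrays, below the 0.04 and -0.04 of PBS arrays 1 and 2, and its difference was -0.43 ± 0.15 (SE). The glutathione transferase Gstt2 was higher without overlap, with a difference of 0.39 ± 0.15 (SE). Hmox1, the heme oxygenase that cadmium induces in many cell types and that was picked after its values were seen, had 0.09, 0.22 and 0.44 on the cadmium arrays and 0.19 and -0.22 on PBS arrays 1 and 2. Its groups overlapped, and the difference was 0.26 ± 0.21 (SE).

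The 34 heat shock and chaperone genes had a median of -0.16 with 12 above 0, and -0.11 without cadmium array 2. The inducible heat shock genes Hspa1a and Hspa1b, picked after their values were seen, differed by 0.42 and 0.41, with cadmium array 3 alone far from 0 in Hspa1b (-0.08, 0.06 and 1.26 on the cadmium arrays). Cct7, a subunit of the chaperonin that folds actin and tubulin, differed by -0.30 ± 0.14 (SE). Of 32 genes of the unfolded protein response and amino acid stress 13 lay above 0, their median was -0.16, and 8 were lower and 2 higher without overlap, where 5.72% and 4.33% of all genes were. Without cadmium array 2 that median was -0.09. Atf6, an endoplasmic reticulum stress sensor, had -0.44, -0.68 and -0.11 on the cadmium arrays, below the -0.07 and 0.07 of PBS arrays 1 and 2, with a difference of -0.41 ± 0.14 (SE). The endoplasmic reticulum chaperone gene Hsp90b1 and the disulfide isomerase gene Pdia6 differed by -0.70 and -0.87, both with separate groups. Hsp90b1 had -0.24, -0.27 and -1.58 on the cadmium arrays, so that array 3 set most of its difference, and Pdia6 had -0.68, -0.74 and -1.24. Among 27 genes of the Bcl2 family and caspases, which set and carry out apoptosis, 16 lay above 0 and the median was 0.04 (0.01 without cadmium array 2).

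Genes of the apical ridge and of ectoderm identity showed no common shift, and cadmium array 2 often opposed the other arrays. Of 31 measured ridge and limb ectoderm genes 18 lay above 0, with a median of 0.06. Fgf8, the main FGF of the ridge, had 0.66, -0.88 and 0.93 on the cadmium arrays and 0.16 and -0.18 on PBS arrays 1 and 2, with a difference of 0.24 ± 0.36 (SE), and 0.78 without cadmium array 2. Wnt6 and Bmp7, ligands of the limb ectoderm that were picked after their values were seen, had the same pattern, with 0.63, -1.11 and 0.91 for Wnt6 and 0.55, -0.99 and 0.66 for Bmp7 on the cadmium arrays. The simple epithelial keratin Krt8 had 0.30, -1.26 and 0.50 and its partner Krt18 had 0.41, -0.60 and 0.48 on the cadmium arrays. Without cadmium array 2 the differences were 0.75 for Wnt6, 0.60 for Bmp7, 0.40 for Krt8 and 0.44 for Krt18, against -0.14 for Krt8 and 0.10 for Krt18 with it. For these 5 genes cadmium array 2 was lower, and cadmium arrays 1 and 3 higher, than every PBS array.

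Dlx1, a homeobox gene of the ridge, had log2 ratios of -0.90, -0.08 and -1.11 on the cadmium arrays, against -0.16 and 0.14 on PBS arrays 1 and 2. Its difference was -0.69 ± 0.21 (SE, adjusted p = 0.615, limma), and without cadmium array 2 it was -0.98 and passed the threshold (adjusted p = 0.0331, the lowest of its alternatives, which reached 1.0). Trp63, the transcription factor that stratified epithelia and the ridge need, had -0.23, -0.40 and -2.43 on the cadmium arrays and -0.26 and 0.22 on PBS arrays 1 and 2. Cadmium array 3 set most of its difference of -1.0 ± 0.42 (SE), since array 1 lay within the PBS range. Notch1, a receptor of the ridge and of epidermis, was higher on all cadmium arrays (0.34, 0.61 and 0.43) than on PBS arrays 1 and 2 (-0.17 and 0.14), with a difference of 0.47 ± 0.20 (SE). These are means of 2 probe sets, which gave 0.80 and 0.15. In the probe set with the smaller difference, cadmium array 1 (-0.11) lay below the PBS arrays.

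Epithelial markers were spread likewise, with 21 of 41 above 0 and a median of 0.04 (0.03 without cadmium array 2). Cldn6, a tight junction claudin of embryonic epithelia, had -0.85, -1.05 and -0.37 on the cadmium arrays, below the -0.20 and 0.18 of PBS arrays 1 and 2, with a difference of -0.75 ± 0.30 (SE). The keratin Krt19 differed by 0.70 ± 0.30 (SE), with cadmium array 2 within the PBS range, and by 1.10 without that array (adjusted p = 0.0857, limma). Cdh1, the E-cadherin of all epithelia, had 0.11, 0.27 and 0.18 on the cadmium arrays, within the 0.23 and -0.28 of PBS arrays 1 and 2 in all but array 2.

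The signalling pathways that link ridge and mesoderm had list medians of 0.00 to 0.09, beside 0.03 over all genes. In the FGF pathway 18 of 24 genes lay above 0 (15 without cadmium array 2), with a median of 0.09, where 57.6% of all genes lay above 0. Of these 24 genes 4 were higher and 0 lower without overlap, where 4.33% and 5.72% of all genes were. Etv4, a transcription factor that FGF signalling induces in the limb, was the member with the smallest p. It had 0.58, 0.22 and 0.58 on the cadmium arrays, above the -0.10 and 0.05 of PBS arrays 1 and 2, with a difference of 0.47 ± 0.17 (SE, adjusted p = 0.801, limma). These are means of 2 probe sets, which gave 0.64 and 0.31. In the probe set with the larger difference, cadmium array 2 (0.06) lay below PBS array 2 (0.29). The 32 Wnt genes had a median of 0.02 (0.06 without cadmium array 2) with 17 above 0, and Ctnnb1, which encodes beta-catenin, differed by -0.46 with separate groups. In the BMP pathway 15 of 30 lay above 0 with a median of 0.00 (0.04 without cadmium array 2). The differences of these 30 genes ran from -0.76 to 1.26. At an unadjusted p under 0.05 (limma) 1 was lower and 0 higher, where 3.37% and 1.08% of all genes were. The receptor gene Bmpr1a and the extracellular modulator Twsg1 differed by -0.62 and -0.76, and in both cadmium array 3 (-1.43 and -1.57) was far below the other cadmium arrays.

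Beyond the lists, the 10 lowest and 10 highest genes with separate groups and an unadjusted p under 0.05 covered varied roles. Coq3, a methyltransferase of ubiquinone synthesis in mitochondria, had -1.56, -1.58 and -1.72 on the cadmium arrays and -0.59 and 0.42 on PBS arrays 1 and 2. Its cadmium arrays were even, and its difference was -1.56 ± 0.36 (SE), with an adjusted p of 0.147 (limma). Gjb2, the gap junction protein connexin 26 of epithelia, had -1.12, -1.04 and -2.68 on the cadmium arrays and -0.79 and 0.51 on PBS arrays 1 and 2, with a difference of -1.52 ± 0.38 (SE). Mrps2, a protein of the small mitochondrial ribosome subunit, had -1.05, -0.95 and -1.70 on the cadmium arrays and -0.23 and 0.20 on PBS arrays 1 and 2, with a difference of -1.22 ± 0.29 (SE). Cadmium array 3 was the lowest of the 3 in all of these genes.

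The rest of the lowest 10 were Mt2, described above, Zfp62 (-1.56), Pfn2 (-1.42), Fyttd1 (-1.31), Usp1 (-1.30), Azin1 (-1.24) and Eif4a2 (-1.16). Pfn2 is an actin-binding profilin, Usp1 removes ubiquitin from PCNA and FANCD2, Azin1 blocks the antizyme that degrades ornithine decarboxylase, and Eif4a2 is a helicase of translation initiation. In Zfp62, Fyttd1, Usp1 and Azin1 cadmium array 3 read between -3.35 and -2.38, and the other cadmium arrays between -1.03 and -0.32. The highest 10 were Ccng1, Cdkn1a and Mcam, followed by Zbtb7a (0.99), Cit (0.89), Twist1 (0.88), Tmem43 (0.84), Adh1 (0.76), Crip2 (0.75) and Kank3 (0.73). Zbtb7a is a zinc finger repressor, Cit the citron kinase of the cytokinetic ring, and Adh1 an alcohol dehydrogenase that oxidises retinol. Tmem43, a protein of the inner nuclear membrane, was even across the cadmium arrays (1.05, 0.59 and 0.88), whereas Zbtb7a was high on array 3 (0.31, 0.05 and 2.61).

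Among metabolic lists, 19 of 29 genes of glycolysis and hypoxia lay above 0. Their median was 0.07, and 0.22 without cadmium array 2, which stood at -0.24 against 0.08 and 0.40 on cadmium arrays 1 and 3. The aldolase Aldoc had 0.71, 0.12 and 1.56 on the cadmium arrays and -0.26 and 0.22 on PBS arrays 1 and 2, with a difference of 0.81 ± 0.28 (SE). Ldhb, a lactate dehydrogenase subunit, differed by 0.44 ± 0.15 (SE) and Egln1, the prolyl hydroxylase that marks HIF1A for degradation, by -0.69 ± 0.32 (SE), both with separate groups. The Ldhb value is a mean of 2 probe sets, which gave 0.63 and 0.24, and in each of them alone the groups overlapped. Of 18 sterol synthesis genes 6 lay above 0, with a median of -0.08 that was 0.01 without cadmium array 2. Sqle, squalene epoxidase, had -0.67, -0.54 and -0.91 on the cadmium arrays, below the -0.17 and 0.15 of PBS arrays 1 and 2, and differed by -0.70 ± 0.25 (SE).

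Of 22 glucocorticoid-responsive genes 13 lay above 0, with a median of 0.03. Besides Mt2, which glucocorticoids also induce, Fkbp5, a chaperone of the glucocorticoid receptor, was lower without overlap (-0.56, -0.65 and -0.35 on the cadmium arrays, -0.31 and 0.26 on PBS arrays 1 and 2). Its difference was -0.50 ± 0.20 (SE, adjusted p = 0.983, limma). The 26 immediate early genes had a median of 0.12 with 17 above 0.

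The lists around the called genes did not follow them. Of 26 ESCRT genes 12 lay above 0 with a median of -0.04 (-0.09 without cadmium array 2), and Vps4a was the 1 that passed. Usp8, a deubiquitinase that acts on endosomal cargo, differed by -0.62 ± 0.22 (SE), with cadmium array 1 at the edge of the PBS range. Of 28 adhesion genes of the immunoglobulin family 19 lay above 0 with a median of 0.06, and Mcam was the 1 that passed. The 36 proteasome subunits had a median of -0.10 with 12 above 0, and the 33 basement membrane and matrix genes 0.11 with 21 above 0; without cadmium array 2, which was below cadmium arrays 1 and 3 in both, the medians were -0.05 and 0.20.

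**Figure D4:**
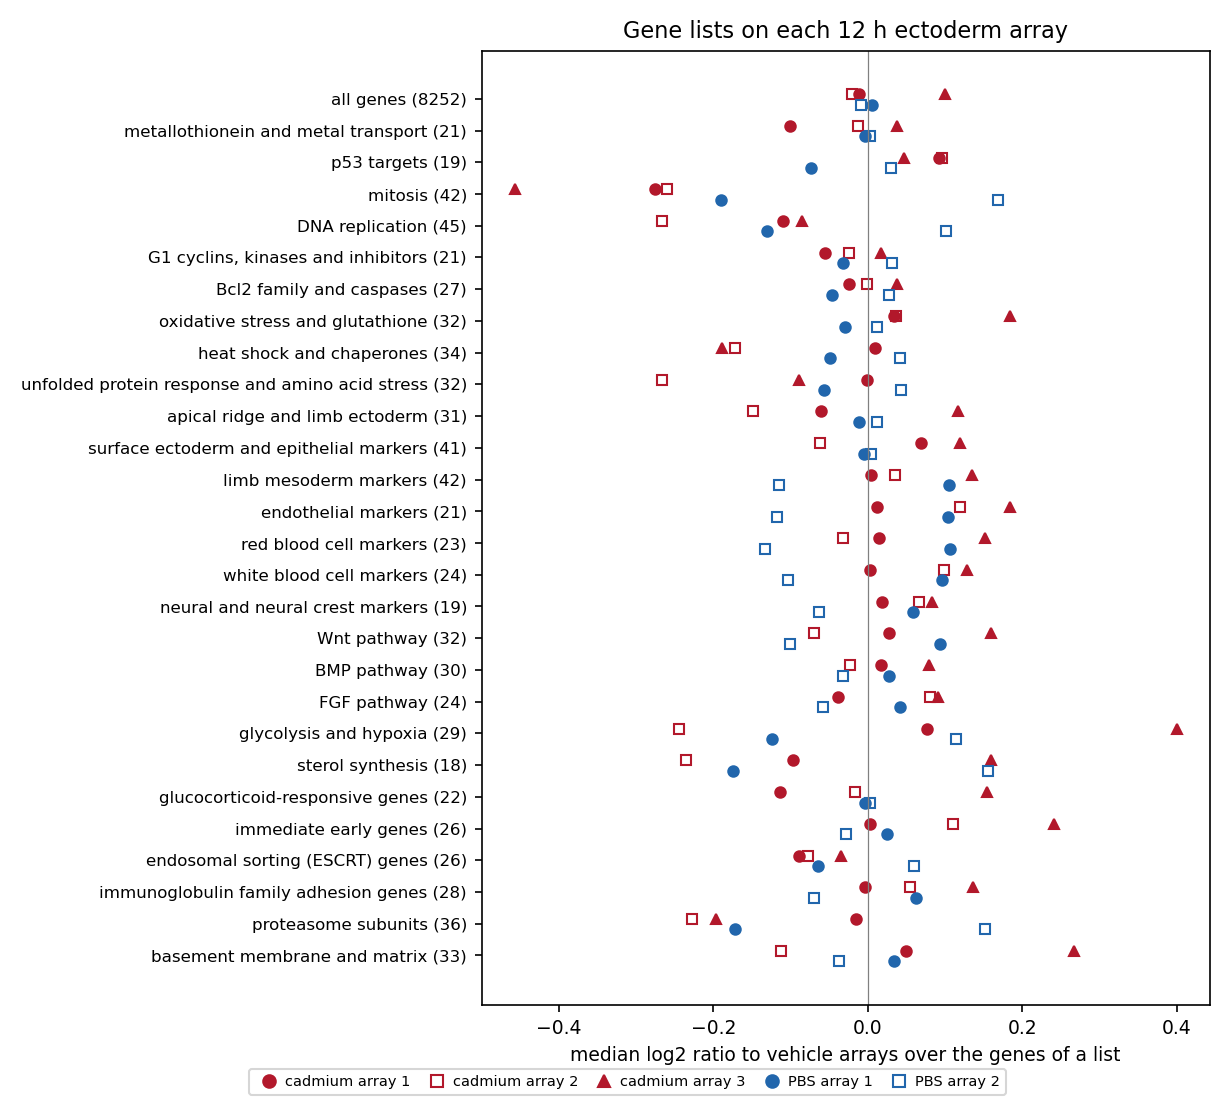
Median log2 ratio to vehicle arrays (x axis) over the measured genes of each list (number in brackets) on each 12 h ectoderm array; cadmium arrays are red and PBS arrays blue, and PBS array 3 is 0 by construction. The 3 cadmium arrays lie at -0.27, -0.26 and -0.46 for mitosis genes, while for glycolysis and hypoxia cadmium array 2 lies at -0.24 and array 3 at 0.40.

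Markers of other cell types were measured beside these results, since trypsin separation can carry mesoderm, vessel or blood cells along. The list medians were 0.07 for limb mesoderm (29 of 42 above 0), 0.11 for endothelium (20 of 21; 0.07 without cadmium array 2), 0.08 for red blood cells (19 of 23), 0.08 for white blood cells (19 of 24; 0.05 without cadmium array 2) and 0.07 for neural and neural crest cells (16 of 19), beside 0.03 and 57.6% over all genes. In each list 0 genes passed the adjusted threshold. The endothelial median, which bears on Mcam, was 0.01, 0.12 and 0.18 on the cadmium arrays and 0.10 and -0.12 on PBS arrays 1 and 2, so that the groups overlapped; Pecam1 and Cdh5, defining genes of endothelium, differed by 0.18 (0.08 without cadmium array 2) and 0.21. The part of these cells in the result for Mcam was not tested.

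Single markers differed more. Twist1, a transcription factor of limb mesoderm, had 0.61, 0.31 and 1.72 on the cadmium arrays, above the -0.05 and 0.05 of PBS arrays 1 and 2, whereas Prrx1, another mesoderm transcription factor, differed by -0.06 (-0.04 without cadmium array 2). The embryonic globin Hbb-y had 1.02, -0.06 and 2.21 on the cadmium arrays and 0.59 and -1.23 on PBS arrays 1 and 2, a wide spread in both groups, with a difference of 1.27 ± 0.52 (SE). Sox2, a transcription factor of neural and sensory progenitors, had 0.97, 1.98 and -0.02 on the cadmium arrays and -0.52 and 0.38 on PBS arrays 1 and 2, with a difference of 1.03 ± 0.38 (SE, adjusted p = 0.825, limma), or 0.59 without cadmium array 2. Cadmium array 3 lay within the PBS range for Sox2, and cadmium array 2 for Hbb-y. The part of carried-over cells in these values was not tested.

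Without cadmium array 2, 20 genes passed the adjusted threshold (0.242%), 9 higher and 11 lower, and they included Mcam and Vps4a. The others higher were Selenbp1 (1.46), 0610012G03Rik (1.32), Pmm1 (1.27), Wfdc2 (1.05), Tulp2 (0.90), Adssl1 (0.88), Sys1 (0.78) and Phkg2 (0.76). Selenbp1 is a selenium-binding methanethiol oxidase, Pmm1 a phosphomannomutase, Wfdc2 a secreted protein of epithelia, and Phkg2 the catalytic subunit of liver phosphorylase kinase. The others lower were Pfn2 (-1.77), Wee1 (-1.62), Mrps2 (-1.32), Pspc1 (-1.26), Zfp105 (-1.16), Nek7 (-1.16), Dlx1 (-0.98), Mettl18 (-0.78), Stard7 (-0.74) and Tbc1d14 (-0.70). Wee1 is the kinase that keeps Cdk1 inactive before mitosis, and Pspc1 is a paraspeckle protein. Cadmium array 2 read between -0.63 and 0.13 in the 8 added genes that were higher, so that their cadmium and PBS groups overlapped once it was included. Leaving out this array also narrows the group to 2 arrays that resembled each other across genes.

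The same tissue and agent were then set beside 3 related comparisons, each with its own 3 vehicle arrays. The question put to them was whether the 12 h ectoderm responded differently from the mesoderm of the same stage, from the ectoderm at 3 h, or from ectoderm exposed to acetazolamide. The residual SD was 0.22 in the 12 h ectoderm and 0.11 in the 12 h mesoderm, where 188 genes were called (2.28%). The 3 h ectoderm had 0 called and 274 at an unadjusted p under 0.05 (3.32%), and acetazolamide ectoderm at 12 h had 0 called and 649 at an unadjusted p under 0.05 (7.86%).

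The cadmium effect in ectoderm minus that in mesoderm passed in 0 genes, with 114 at an unadjusted p under 0.05 (1.38%), and in 2 without PBS array 1 of the ectoderm. Genes called in mesoderm mostly had the same sign in ectoderm. Of 87 genes called higher in mesoderm 80 lay above 0 in ectoderm (92.0%, beside 57.6% of all genes), with a median of 0.23 in ectoderm, or 0.45 without cadmium array 2, and 0.52 in mesoderm, and 19 of them were higher in ectoderm at an unadjusted p under 0.05, beside 1.08% of all genes. Of 101 called lower in mesoderm (1.22%) 95 lay below 0 in ectoderm (94.1%), with medians of -0.44 in ectoderm (-0.50 without cadmium array 2) and -0.56 in mesoderm, and 51 of them were lower in ectoderm at an unadjusted p under 0.05, beside 3.37% of all genes. Whether ectoderm and mesoderm arrays came from the same litters is not stated, so the 2 tissues may not be independent.

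Mt2 differed by -1.49 in ectoderm and by -2.86 in mesoderm at 12 h, where it passed (adjusted p = 6.71e-10, limma), and the difference between the tissues was 1.37 (95% interval 0.43 to 2.32, adjusted p = 1.0). Ccng1 differed by 1.80 in ectoderm and 1.94 in mesoderm, and Cdkn1a by 1.11 and 1.57. Both passed in mesoderm (adjusted p = 6.53e-05 and 4.89e-05, limma) and not in ectoderm. The differences between the tissues were -0.14 (95% interval -1.33 to 1.05) and -0.46 (-1.34 to 0.43). Mcam differed by 1.10 in ectoderm and 0.27 in mesoderm, a difference of 0.83 (95% interval 0.47 to 1.19) with an adjusted p of 0.495 (limma). Vps4a passed in both tissues, with -1.09 in ectoderm and -0.61 in mesoderm, where its adjusted p was 0.000490. The differences in ectoderm and mesoderm were -1.52 and -0.01 for Gjb2, -1.0 and 0.00 for Trp63 and -0.69 and 0.15 for Dlx1, and none of the 3 contrasts between tissues passed (adjusted p = 1.0 each, limma). Mitosis genes had a median of -0.37 in ectoderm and -0.09 in mesoderm, where 12 of 42 lay above 0.

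Against 3 h, 1 gene passed in the ectoderm (0.0121%), with 288 at an unadjusted p under 0.05 (3.49%). This was Mcam, whose difference was 1.10 at 12 h and -0.03 at 3 h, so that the cadmium effect was higher at 12 h by 1.13 (adjusted p = 0.0111, limma). Without PBS array 1 of 12 h 20 genes passed, without cadmium array 2 of 12 h 2, and without array 3 of either 12 h group or cadmium array 2 of 3 h 0. Mt2 was -1.49 at 12 h and 0.58 at 3 h, a difference of -2.06 with an adjusted p of 0.303 (limma). Ccng1 and Cdkn1a were at 0.08 and -0.05 at 3 h, with 95% intervals that included 0. Their cadmium effects were higher at 12 h by 1.71 and 1.16, and neither contrast passed (adjusted p = 0.971 each, limma). The mitosis median was 0.02 at 3 h, with 24 of 42 above 0.

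Of the differences between the cadmium and acetazolamide effects in 12 h ectoderm 0 passed, while 963 had an unadjusted p under 0.05 (11.7%). The number that passed was 255 without PBS array 1, 161 without oil array 2, 5 without cadmium array 2, 2 without oil array 1 and 1 without acetazolamide array 3 or oil array 3. Mcam differed by 1.10 with cadmium and 0.06 with acetazolamide, a difference of 1.04 with an adjusted p of 0.0661 (limma). Vps4a differed by -1.09 with cadmium and 0.09 with acetazolamide (adjusted p = 0.109 for the difference). For Coq3 the values were -1.56 with cadmium and 0.47 with acetazolamide, and for Trp63 -1.0 and 0.94. The mitosis median was -0.37 with cadmium and 0.24 with acetazolamide, where 34 of 42 genes lay above 0. The correlation of -0.78 between the third arrays of both comparisons, given above, bears on such opposite values, and its part in them was not tested.

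**Figure D5:**
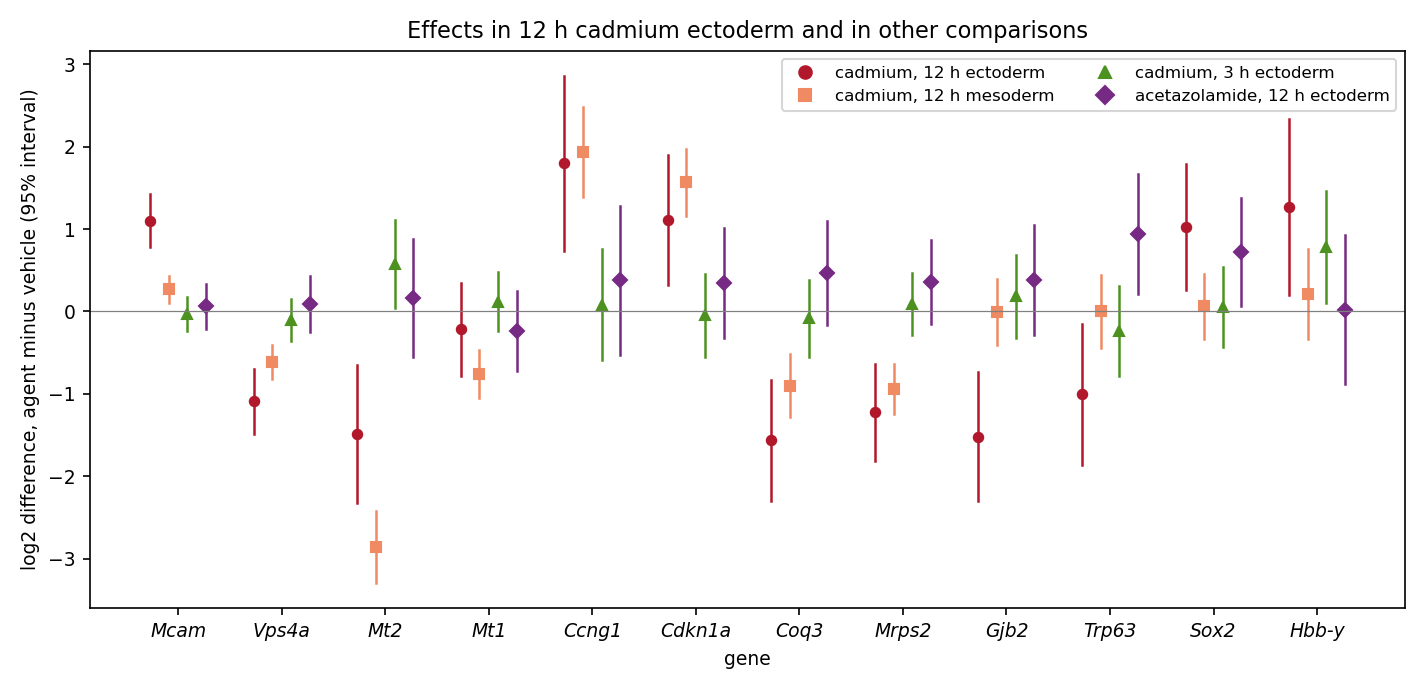
Log2 difference between agent and vehicle arrays with its 95% interval (y axis) for 12 genes in cadmium 12 h ectoderm and in cadmium 12 h mesoderm, cadmium 3 h ectoderm and acetazolamide 12 h ectoderm. Mcam lies at 1.10 in 12 h cadmium ectoderm and between -0.03 and 0.27 in the other comparisons, while Ccng1 and Cdkn1a lie near each other in both tissues at 12 h.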

How the data were processed

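RNA of 48 arrays in 16 groups of 3 was measured on Affymetrix MG-U74Av2 arrays with one-cycle biotin labelling, after Trizol and RNeasy extraction, per the labels' protocols. Each deposited value is a ratio, an array's signal over that of its matching vehicle arrays, as the values themselves show; how the authors made them is not given in the sources used here. Signal over background is therefore unknown, and precision is limited by the number of arrays. That cadmium arrays 1 and 2 share the denominator of PBS arrays 1 and 2, and cadmium array 3 that of PBS array 3, is an inference from the numbering.

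Probe sets were named through the platform annotation, with symbols checked by Entrez identifier (10839 matched in RefSeq, 0 symbols changed); 396 probe sets naming several genes and 1237 naming none were left out. Ratios were taken to log2 and averaged per gene (2076 genes had more than 1 probe set). Limma 3.58.1 in R 4.3.3 was fitted to all 48 arrays with a mean for each denominator (arrays 1 and 2, array 3), 8 agent effects, one precision weight per comparison and 24 residual degrees of freedom, then eBayes and Benjamini-Hochberg adjustment over 8252 genes at 0.05. No pseudocount or filter on dim probe sets could be applied to ratios. The fit was tested on simulated data.

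Genes were named by rule: all called, the 10 highest and 10 lowest with separate groups and an unadjusted p under 0.05, the 4 members of each list with the smallest p, and Mt1, Mt2, Ccng1, Cdkn1a, Fgf8, Trp63, Krt8, Krt18, Cdh1, Prrx1 and Twist1; of those the members that illustrate a list are printed, and names outside the rule are marked as picked after their values were seen. The comparison, the gene lists and the rule were chosen with earlier results of these data known. Replicate numbers are shared between groups in the labels. Across genes, the difference between arrays 1 and 2 correlated between cadmium and PBS at -0.20 in 12 h ectoderm and 0.65 in 12 h mesoderm. It correlated at 0.04 in 3 h ectoderm and 0.06 in 3 h mesoderm. The fit did not pair arrays by number. Whether the 0.65 reflects paired arrays in 12 h mesoderm was not tested. Alternatives tried are in the closing section.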

Additional observations from a re-analysis of the deposited data

Results flagged for a closer look

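The cadmium effect on Mcam differed between times in the ectoderm: it was higher at 12 h than at 3 h by 1.13 on the log2 scale, with an adjusted p of 0.0111 in the limma fit. The cadmium arrays read 0.83, 0.85 and 1.60 at 12 h, all above the PBS arrays of that time.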

How the results depend on the processing

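Counts of genes passing are given in the order cadmium effect at 12 h in ectoderm, its difference from mesoderm, from 3 h and from acetazolamide, which were 2, 0, 1 and 0 in the fit reported above. Without weights they were 89, 0, 1 and 297, without the denominator means 3, 0, 1 and 8, with array number as a replicate block 0, 0, 0 and 0, with array 3 of each group dropped 0, 0, 0 and 0, with all treated arrays against vehicle arrays 1 and 2 0, 0, 0 and 0, with arrays centred on their median 1, 0, 1 and 0, with only the arrays of the comparison 0, 0, 0 and 0, with each probe set tested on its own 3, 0, 3 and 0, and with the median of probe sets per gene 2, 0, 1 and 4. Leaving out single arrays gave 0 to 90, 0 to 2, 0 to 20 and 0 to 255 calls. Under the replicate block the adjusted p (limma) was 0.0572 for Mcam and 0.0605 for Vps4a with unchanged differences of 1.10 and -1.09, and 0.353 for Mcam at 12 h against 3 h. The array numbers are not known to pair the samples, and the cause of these lost calls was not tested. Across the alternatives the adjusted p in 12 h ectoderm lay between 2.55e-06 and 0.952 for Mcam and between 8.99e-05 and 1.0 for Vps4a, and neither gene turned in sign. Signs turned once array 3 of each group was dropped for Bmp7 (-0.22), Fgf8 (-0.10), Hspa1b (-0.0093), Krt18 (-0.093), Mtf1 (-0.022) and Wnt6 (-0.24), none of which was called. Leaving out single arrays, the differences ran from -0.28 to 0.60 for Bmp7, -0.10 to 0.78 for Fgf8, -0.0093 to 0.58 for Hspa1b, -0.14 to 0.44 for Krt18, -0.49 to 0.40 for Krt8, -0.12 to 0.016 for Mt4, -0.022 to 0.18 for Mtf1, -0.16 to 0.017 for Prrx1 and -0.24 to 0.75 for Wnt6. The cause of these changes was not tested. With 3 arrays a group and a 95% half-width of 0.42 for the median gene, most smaller differences could not be resolved, and since the ratios hold no level, genes near background could not be set apart.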
